A study of Fagopyrum tataricum with 9 samples.

Results

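The transcript changes between the discoloration stage (19 days post anthesis, DPA) and the initial maturity stage (25 DPA) were followed in Tartary buckwheat seeds (Fagopyrum tataricum, cultivar XIQIAO NO.2). The comparison used the 3 libraries of each stage, 6 of the 9 libraries of the series, with the 3 libraries of the green fruit stage (13 DPA) as background. Of the 33940 genes in the deposited counts, 23609 had enough counts to be tested. The plants were grown in the field without treatment, whole seeds were used, and the labels state that the stages came from the same individual while 3 plants made up the replicates. They do not say that a replicate number marks a plant, so the p-values measure the spread between these libraries. All results describe 1 cultivar.

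In maturing seeds of the plants studied best, such as Arabidopsis, abscisic acid (ABA) acts through PYR/PYL receptors and bZIP transcription factors of the ABI5 group, which switch on genes for reserve storage and desiccation tolerance. Auxin and gibberellin promote cell growth earlier in development, and their actions are read out through Aux/IAA repressors, small auxin-up RNAs, DELLA repressors and gibberellin-regulated peptides. Tartary buckwheat seeds are also known for rutin, a flavonol glycoside made from phenylalanine by the phenylpropanoid and flavonoid pathways.

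The 6 libraries held 22337188 to 23689017 counts, and 26268 to 27305 genes were above 0 at 19 DPA against 25484 to 26084 at 25 DPA. The 10 most abundant genes took 29.3 to 36.5% of the counts in the 19 DPA libraries and 33.9 to 35.9% in those of 25 DPA. Replicate 2 of 19 DPA stood apart from the other libraries of its stage. Across genes, which are not independent replicates, its log2 CPM (counts scaled to the size of the library) had r of 0.847 to 0.892 with the 25 DPA libraries, against 0.784 to 0.832 for 19 DPA replicates 1 and 3. It was the 19 DPA library nearest to the mean of 25 DPA for 44.5% of the genes tested, while replicates 1 and 3 were nearest for 24.1 and 31.4%. Among the 25 DPA libraries, replicate 2 was nearest to the mean of 19 DPA for 41.0% of the genes. In bulk RNA of whole seeds, fewer cells of a type and less RNA per cell cannot be told apart.

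Far-reaching decreases and moderate increases made up the change from 19 to 25 DPA. A differentially expressed gene (DEG) had an edgeR FDR no higher than 0.05 and a log2 fold change (log2FC, given with its standard error, SE) of 1 or more in either direction, and positive values mean higher expression at 25 DPA. By this rule 28.8% of the genes tested were DEGs, 9.27% higher and 19.5% lower at 25 DPA. The median log2 fold change was 1.48 for the 2189 higher DEGs and -2.36 for the 4604 lower DEGs. At least 4-fold changes were found in 576 of the higher DEGs (26.3%) and 2809 of the lower DEGs (61.0%), and at least 16-fold changes in 70 (3.2%) and 801 (17.4%). The replicates of the stages did not overlap in 99.1% of the higher and 96.2% of the lower DEGs, against 53.8% of all genes tested. Much of this contrast follows from the call itself, which was made on the same libraries. Without 19 DPA replicate 2 the test called 2426 higher and 4651 lower DEGs, and without 25 DPA replicate 2 it called 2077 and 4208. When libraries were set to their totals rather than by TMM, 1218 DEGs were higher and 5522 lower, and the median over all genes moved from -0.02 to -0.32.

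**Figure D1:**
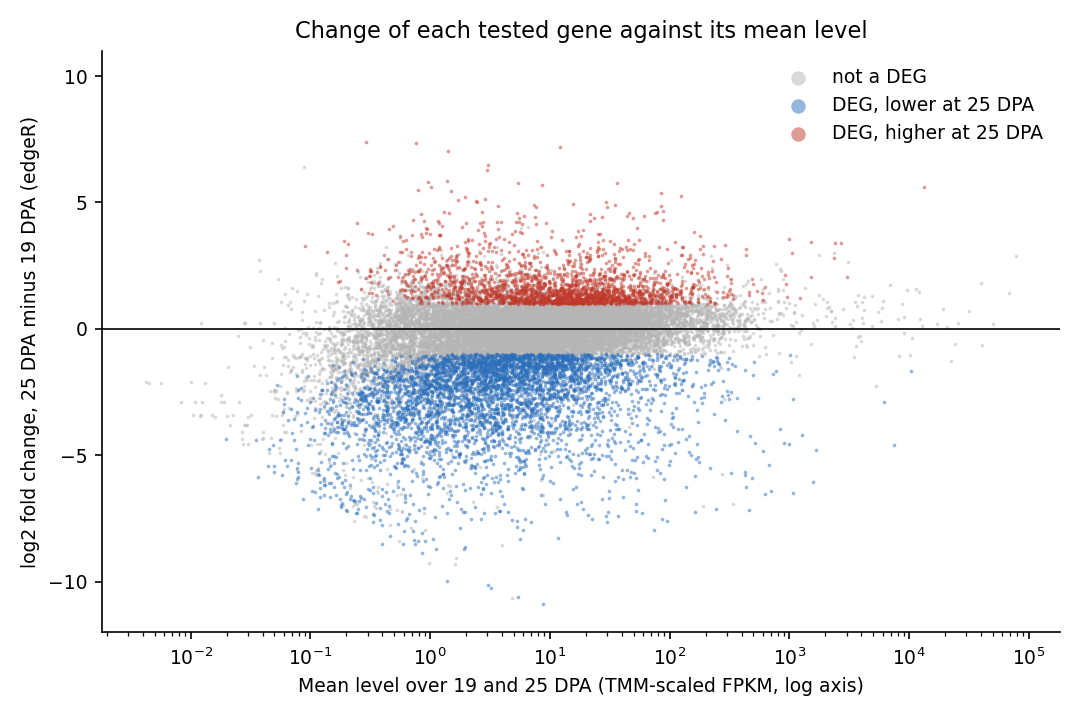
Each point is 1 of the genes tested, with its mean level over the 6 libraries of 19 and 25 DPA (TMM-scaled FPKM, log axis) and its log2 fold change (25 DPA minus 19 DPA). DEGs higher at 25 DPA (red) passed 4-fold in 576 of 2189 cases and lower DEGs (blue) in 2809 of 4604; genes that were not called are grey.

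The balance of the directions changed with abundance. Levels are given as TMM-scaled FPKM, that is fragments divided by the length of the gene and by the size of the library after scaling. Of the 3513 genes with a mean level under 1 over both stages, 3.81% were higher and 29.1% lower at 25 DPA. The shares were 8.04 and 23.1% at levels of 1 to 10, 12.4 and 12.1% at 10 to 100, 14.4 and 12.4% at 100 to 1000, and 9 and 10% of the 100 genes at 1000 or more. With TMM scaling and all 9 libraries fitted, lower DEGs therefore outnumbered higher DEGs at levels under 10, and the shares were near each other in the classes above. The count filter kept genes that were expressed in any stage, 13 DPA included. When only the 6 libraries of 19 and 25 DPA were fitted, 1751 genes under a level of 1 were tested, and 6.28% were higher and 29.2% lower. At levels of 10 to 100 both shares were 12.2% in that fit. Higher DEGs were the larger group above, with 19% higher and 12.7% lower at 100 to 1000. At 1000 or more, 23% were higher and 11% lower. The near shares at levels of 100 or more thus depended on fitting the 13 DPA libraries too. With library totals, lower DEGs were the larger group in every class, with 16% lower and 6.79% higher at levels of 10 to 100.

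**Figure D2:**
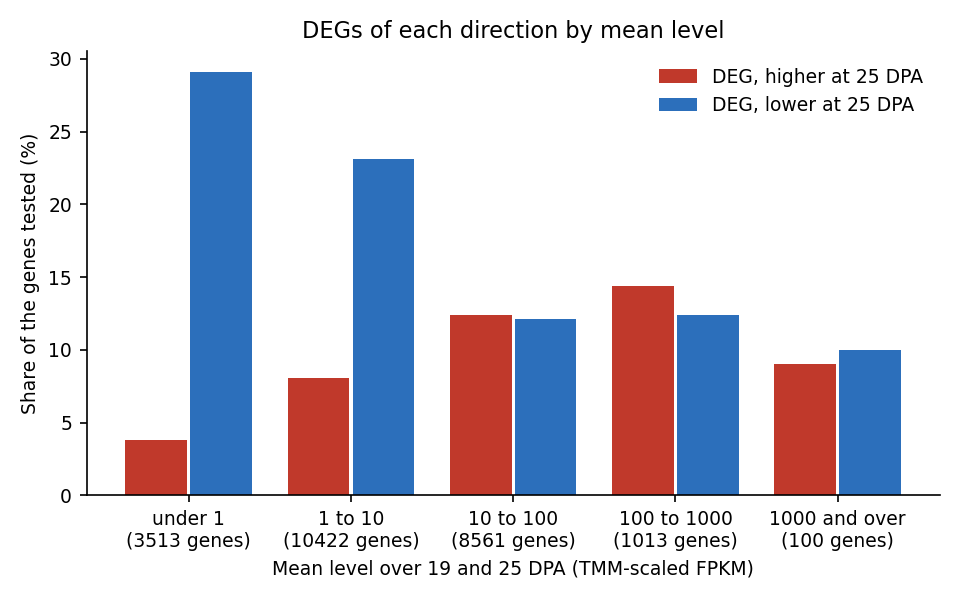
Bars give the share of the genes tested (%) in 5 classes of mean level (TMM-scaled FPKM over 19 and 25 DPA) that were DEGs higher (red) or lower (blue) at 25 DPA. Lower DEGs fell from 29.1% of the genes under a level of 1 to 12.1% at 10 to 100, where 12.4% were higher (6.79% with library totals).

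Complete loss of a transcript was rare. Of the genes with at least 10 counts in every 19 DPA library, 15 had 0 counts in every 25 DPA library, and 1 gene showed the reverse. No gene with at least 100 counts in each library of a stage was at 0 throughout the other, where a count of 0 allows up to 3 counts in a library by counting error. At the other end of the range, 8 genes were among the 10 most abundant of both stages, and none of the 12 genes in either group of 10 was a DEG. The largest rise among them was that of FtPinG0004979700.01, in share from 0.641, 0.811 and 0.566% of the counts to 3.32, 3.51 and 5.44%. Its replicates did not overlap, but the change did not pass the test (log2 fold change 2.88, edgeR FDR 0.0995). Shares of other genes among the 12 also changed without overlap, in both directions. FtPinG0004981100.01 rose from 1.36, 1.38 and 1.15% to 2.16, 3.06 and 3.43%, and FtPinG0009373700.01 fell from 6.14, 8.17 and 5.30% to 3.93, 3.17 and 3.66%. New genes of the authors' assembly had 15.7% higher and 13.3% lower among 1585 tested, and annotated genes had 8.81 and 19.9% among 22024. The new genes were assembled from the reads of this series, so they entered the set through their expression in it. Their shares are not taken as independent evidence.

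The 4 genes without a name in the files that a rule on p and on the size of the change selected show the ends of these distributions. FtPinG0008881000.01 had levels of 259, 1091 and 244 at 19 DPA against 21744, 9897 and 46533 at 25 DPA, after 14.5, 73.2 and 6.48 at 13 DPA (log2FC 5.62 ± 1.19 SE, edgeR FDR 0.00656). It had the largest gain in CPM among DEGs whose replicates did not overlap, and 19 DPA replicate 2 was the highest library of its stage. FtPinG0008357900.01 had the smallest p among the higher DEGs, with 1.46, 1.58 and 1.74 at 19 DPA against 14.2, 12.9 and 18.7 at 25 DPA (log2FC 3.26 ± 0.24 SE, edgeR FDR 0.000394). FtPinG0001968600.01 had the smallest p of the lower DEGs and went from 25.6, 27.6 and 31.3 to 2.48, 2.72 and 2.49 (log2FC -3.46 ± 0.17 SE, edgeR FDR 0.000108). In both genes the spread within a stage was small beside the change, which their choice by the smallest p favours. The largest loss in CPM was that of FtPinG0002072200.01, from 12372, 21512 and 13046 to 4925, 3887 and 6031 (log2FC -1.66 ± 0.56 SE, edgeR FDR 0.0402), a call made in 10 of 18 refits with another tool, scaling, filter or set of libraries.

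Of the 18 phytohormone families with a gene tested, 9 held DEGs of both directions, 5 lower DEGs alone, none higher DEGs alone and 4 no DEG. The auxin genes without a family name were counted as a family here. The list is the study's own, and whether these libraries entered its choice is not stated, so its counts are not taken as independent evidence. Of its 277 identifiers 276 were in the files and 191 were tested. At 25 DPA 8.38% of these were higher and 28.8% lower, against 9.27 and 19.5% of all genes. The median log2 fold change was -0.56 for the list and -0.02 for all genes tested. With the genes at 0 throughout a stage set to the bound that 3 counts in each library give, the medians were -0.44 and -0.02.

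Genes of ABA action stood on both sides, and the most abundant of them was higher at 25 DPA. Of the 33 genes tested, 7 (21.2%) were higher and 11 (33.3%) lower, against 9.27 and 19.5% of all genes tested. The receptors of the PYR/PYL/RCAR family, which bind ABA and then inhibit protein phosphatases, gave 2 higher (13.3%) and 4 lower genes (26.7%) among 15. FtPinG0002311400.01, matched by the study to PYL10, had levels of 0.751, 0.257 and 0.885 at 19 DPA against 4.59, 4.08 and 7.57 at 25 DPA (log2FC 3.07 ± 0.47 SE, edgeR FDR 0.00176). Its 25 DPA libraries were all several times above those of 19 DPA. FtPinG0005799600.01, matched to PYL4, went from 2.81, 2.22 and 2.398 to 4.98, 7.83 and 7.95 (log2FC 1.48 ± 0.51 SE, edgeR FDR 0.0439), without overlap, but was called in only 6 of the 18 refits. The receptor gene with the highest level at 19 DPA changed the other way. This gene, FtPinG0001214600.01, fell from 57.4, 25.5 and 47.9 to 13.4, 13.5 and 19.8 (log2FC -1.49 ± 0.30 SE, edgeR FDR 0.00478), and 19 DPA replicate 2 was the library closest to 25 DPA. FtPinG0004424000.01 (log2FC -1.60), FtPinG0002102600.01 (log2FC -2.55) and FtPinG0008671800.01 (log2FC -2.59) were also lower. Summed over the family, levels ranged from 135.5 to 160 at 19 DPA and from 56.3 to 90.4 at 25 DPA.

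Of the 10 bZIP factors tested on the ABA list 3 (30.0%) were higher and 5 (50.0%) lower, against 9.27 and 19.5% of all genes tested. FtPinG0003523300.01, matched to ABI5, which activates genes of late seed maturation in Arabidopsis, went from 13.9, 30.6 and 12.7 at 13 DPA through 65.4, 96.6 and 63.9 at 19 DPA to 192, 213 and 274 at 25 DPA (log2FC 1.59 ± 0.37 SE, edgeR FDR 0.00985). Within each of the earlier stages replicate 2 was the highest library, and no library of 19 DPA reached the level of 25 DPA. FtPinG0003196200.01, matched to an ABI5-like protein, rose from 18.5, 27.4 and 16.2 to 145, 71.8 and 62.1 (log2FC 2.17 ± 0.40 SE, edgeR FDR 0.00368), and FtPinG0003012600.01, matched to the same protein, from 12.5, 14.998 and 10.998 to 54.1, 28.8 and 27.004 (log2FC 1.51 ± 0.31 SE, edgeR FDR 0.00541). In these 2 genes 25 DPA replicate 1 was the highest library. All 3 higher bZIP genes were called in each of the 18 refits.

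Among the 5 lower bZIP genes, FtPinG0008174200.01 fell from 13.8, 23.3 and 13.1 to 3.31, 3.16 and 3.37 (log2FC -2.35 ± 0.29 SE, edgeR FDR 0.000926), FtPinG0002143600.01 from 5.42, 3.48 and 5.12 to 0.831, 0.984 and 0.815 (log2FC -2.41), and FtPinG0002063700.01 from 4.24, 2.84 and 3.997 to 0.318, 0.564 and 0.17005 (log2FC -3.36). For each of these genes the 25 DPA libraries lay well below every 19 DPA library. FtPinG0009765500.01 was lower by a smaller margin (log2FC -1.30). The last, FtPinG0001379200.01, had 3.24, 0.316 and 50.8 at 19 DPA against 0, 0.192 and 0.231 at 25 DPA, so its fold rests mostly on 19 DPA replicate 3. As a sum over the family, the level was 155 to 205 at 19 DPA and 359 to 440 at 25 DPA.

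The cytochrome P450 genes on the list are of the group that in Arabidopsis includes the ABA 8'-hydroxylases, which degrade the hormone. Among 8 genes, 2 were higher and 2 lower, 25.0% each, against 9.27 and 19.5% of all genes tested. FtPinG0002387400.01 rose from 11.8, 11.5 and 15.996 to 41.4, 44.3 and 53.5 (log2FC 1.82 ± 0.25 SE, edgeR FDR 0.00116), and FtPinG0003175900.01 from 10.3, 19.9 and 10.7 to 48.2, 22.2 and 39.6 (log2FC 1.43 ± 0.33 SE, edgeR FDR 0.00946). In contrast, FtPinG0003614600.01 fell from 3.17, 2.94 and 2.997 to 0.131, 0.349 and 0.0467 (log2FC -4.04 ± 0.51 SE, edgeR FDR 0.00097). FtPinG0002378800.01 went from 0.758, 1.31 and 1.16 to 0.253, 0.353 and 0.426 (log2FC -1.63). The median of the 8 was 0.20, and -0.08 with library totals.

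**Figure D3:**
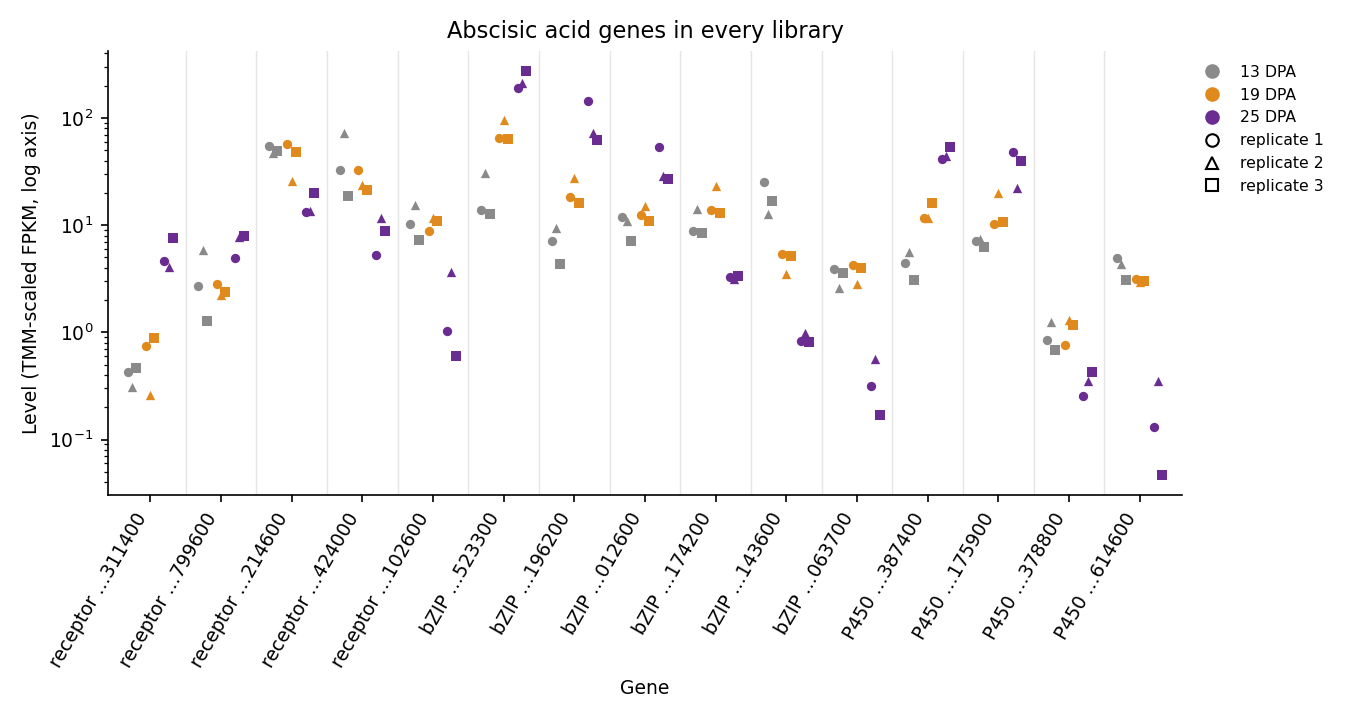
Levels (TMM-scaled FPKM, log axis) of 15 ABA genes (last 6 digits of the number shown) in each library of 13 DPA (grey), 19 DPA (orange) and 25 DPA (purple), with replicates as circle, triangle and square. Receptor, bZIP and P450 genes each include DEGs that were higher and DEGs that were lower at 25 DPA. The genes drawn did not overlap between 19 and 25 DPA, which their choice among DEGs favours.

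Of the 114 auxin genes tested, 4 (3.51%) were higher and 33 (28.9%) lower, against 9.27 and 19.5% of all genes tested. The summed level of the auxin list went the other way, from 2013 to 2991 at 19 DPA to 3467 to 4656 at 25 DPA. Much of this sum was the 1 gene of the DRM1/ARP family, with 671.5 to 1508 and then 2224 to 3385 (log2FC 1.20). It was not a DEG. Transport proteins had no higher DEG. Of 9 auxin efflux carriers, which export the hormone from cells, 4 were lower (median log2 fold change -1.13). FtPinG0009541700.01 fell from 5.79, 4.44 and 3.36 to 1.101, 0.901 and 0.589 (log2FC -2.38 ± 0.29 SE, edgeR FDR 0.000876), and FtPinG0004913500.01 from 10.3, 7.94 and 5.36 to 0.904, 1.61 and 1.94 (log2FC -2.41 ± 0.36 SE, edgeR FDR 0.00154). In both genes every 25 DPA library was below every 19 DPA library. FtPinG0006941400.01 (log2FC -1.93) and FtPinG0000437300.01 (log2FC -1.13) were the others. The amino acid/polyamine transporter 2 family, to which AUX1-type influx carriers belong, had 2 lower genes among 6 (33.3%). The summed level of the family did not fall, with 87.6 to 99.5 at 19 DPA and 82.9 to 179.8 at 25 DPA. The lower genes were thus minor parts of it. FtPinG0006908400.01 went from 43.4, 28.3 and 23.4 at 13 DPA through 7.605, 2.103 and 4.67 at 19 DPA to 0.115, 0.615 and 0.165 at 25 DPA (log2FC -3.95 ± 0.65 SE, edgeR FDR 0.00237), so each stage lay below the one before it. FtPinG0007643300.01 fell from 2.28, 1.997 and 1.65 to 0.232, 0.651 and 0.331 (log2FC -2.26 ± 0.36 SE, edgeR FDR 0.00203). FtPinG0003888700.01 had 13.9, 11.6 and 11.1 at 13 DPA and was at 5.003, 3.83 and 3.65 and then 4.56, 3.85 and 1.797 (log2FC -0.29 ± 0.31 SE, edgeR FDR 0.486), with overlap between 19 and 25 DPA.

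The Aux/IAA family holds repressors of auxin-responsive transcription. Of 58 genes tested 2 (3.45%) were higher and 14 (24.1%) lower, against 9.27 and 19.5% of all genes tested. The median log2 fold change was -0.29, 22 members had a value above 0 and 42 members were not DEGs. FtPinG0000387700.01 rose from 12.3, 15.9 and 14.8 to 35.3, 42.1 and 39.98 (log2FC 1.45 ± 0.20 SE, edgeR FDR 0.00116). The other higher gene, FtPinG0008597700.01, went from 34.95, 42.5 and 62.6 to 111, 93.2 and 110.3 (log2FC 1.17 ± 0.34 SE, edgeR FDR 0.0248) and was called in 10 of 18 refits. Neither gene overlapped between the stages, which their choice among DEGs favours. The lower gene with the smallest p was FtPinG0003635500.01, from 8.05, 9.87 and 8.85 to 1.49, 1.32 and 2.01 (log2FC -2.47 ± 0.25 SE, edgeR FDR 0.000513). More abundant was FtPinG0009368700.01, which fell from 57.3, 39.5 and 61.1 to 18.4, 24.4 and 18.9 (log2FC -1.35 ± 0.22 SE, edgeR FDR 0.00218). The study's list places 3 genes in this family that its text names as auxin response factors. Of these, FtPinG0000807700.01 (log2FC -1.56) and FtPinG0008443000.01 (log2FC -4.33) were lower and Novel02020 was not a DEG, with 16.2, 20.7 and 14.1 at 19 DPA against 29.1, 22.5 and 12.8 at 25 DPA.

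The ARG7 family holds small auxin-up RNAs, transcripts that auxin induces within minutes to hours. Of 80 listed genes 27 were tested, and 1 (3.7%) was higher and 9 (33.3%) lower, against 9.27 and 19.5% of all genes tested. FtPinG0002594300.01 was the most abundant lower member, with 164, 168 and 77.97 at 19 DPA against 27.8, 34.6 and 32.9 at 25 DPA (log2FC -2.10 ± 0.40 SE, edgeR FDR 0.0043). FtPinG0004378100.01 fell from 75.8, 65.1 and 33.6 to 4.78, 22.8 and 8.34 (log2FC -2.27 ± 0.56 SE, edgeR FDR 0.0122), and its 25 DPA replicate 2 had the highest level of that stage. FtPinG0007966400.01 had 33, 4 and 18 counts at 19 DPA and none in any 25 DPA library (edgeR FDR 0.00474). The higher member, FtPinG0003158800.01, went from 0.408, 0.304 and 0.594 to 1.402, 1.66 and 1.92 (log2FC 1.90 ± 0.54 SE, edgeR FDR 0.0215). Since 7 of the 27 were at 0 throughout a stage, the fitted median of -2.10 depends on the prior count. It was -0.92 over 24 genes with those at their bound. The number of lower ARG7 genes was 12 when 19 DPA replicate 2 was left out, 4 when 19 DPA replicate 3 was and 3 when 25 DPA replicate 2 was.

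Other auxin genes included 8 without a family name. FtPinG0006955500.01, listed as a receptor, rose from 42.8, 53.3 and 33.6 to 67.8, 80.1 and 121 (log2FC 1.05 ± 0.25 SE, edgeR FDR 0.0111), and FtPinG0003566300.01, listed under signal transduction, fell from 20.99, 32.1 and 18.3 to 0.357, 6.66 and 5.92 (log2FC -2.46 ± 0.72 SE, edgeR FDR 0.0245). Both germin-family genes on the list, also given as receptors, were lower. FtPinG0008266700.01 fell from 8.36, 3.34 and 16.3 to 0.584, 0.3702 and 1.07 (log2FC -3.81 ± 0.71 SE, edgeR FDR 0.00387), and FtPinG0005922500.01 had 5, 2 and 6 counts at 19 DPA and none at 25 DPA. In the UBR4 family 1 of 3 was lower, FtPinG0005537600.01 (log2FC -3.27).

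**Figure D4:**
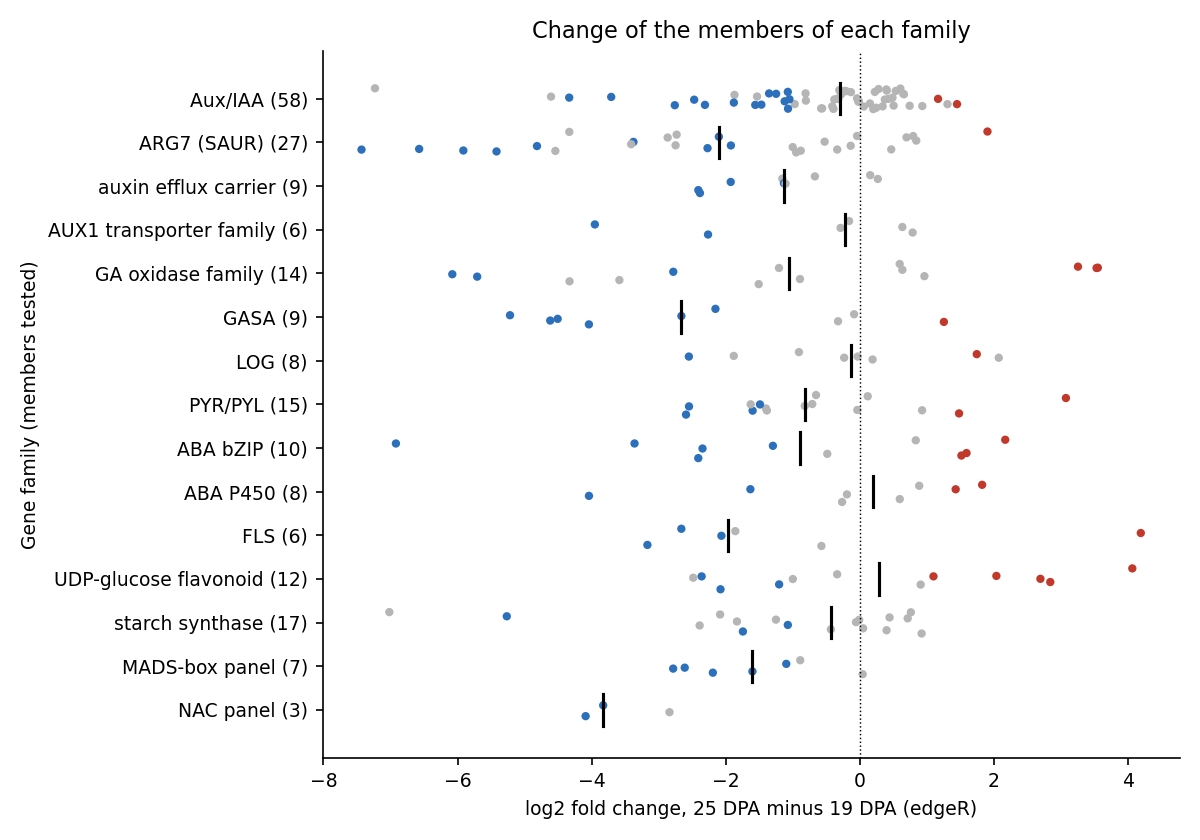
Each point is the log2 fold change (25 DPA minus 19 DPA) of 1 tested member of 15 families, red for DEGs higher and blue for DEGs lower at 25 DPA, grey for genes that were not called, and the black bar is the family median. Fitted changes of genes at 0 throughout a stage depend on the prior count. Most families hold members on both sides of 0. GASA had 6 lower and 1 higher DEG among 9, and the MADS-box panel 5 lower and none higher among 7. Of all genes tested 19.5% were lower and 9.27% higher.

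Gibberellin genes gave 4 higher (13.3%) and 9 lower DEGs (30.0%) among 30, against 9.27 and 19.5% of all genes tested. The iron/ascorbate-dependent oxidoreductases on the list, the enzyme family of the gibberellin oxidases that make and inactivate the hormone, had 3 of each direction among 14. FtPinG0007406000.01 rose from 3.404, 12.04 and 6.07 to 53.7, 71.97 and 122 (log2FC 3.53 ± 0.49 SE, edgeR FDR 0.00133), FtPinG0004385200.01 from 0.788, 0.5404 and 0.591 to 9.19, 5.51 and 8.002 (log2FC 3.55 ± 0.38 SE, edgeR FDR 0.000618), and FtPinG0008198800.01 from 4.78, 13.5 and 6.52 to 76.5, 85.7 and 72.99 (log2FC 3.25 ± 1.02 SE, edgeR FDR 0.0324). These were the 3 largest log2 fold changes among the higher hormone DEGs, and the first 2 were called in all 18 refits. FtPinG0006689400.01 fell from 5.66, 2.09 and 6.16 to 0, 0.139 and 0.112 (log2FC -5.71 ± 1.16 SE, edgeR FDR 0.00562), and FtPinG0006689500.01 from 8.07, 4.88 and 22.1 to 0.258, 2.98 and 1.82 (log2FC -2.78 ± 0.79 SE, edgeR FDR 0.0219). The third lower gene, FtPinG0002514700.01, had 7.06, 0.361 and 55.1 and then 0, 0.4103 and 0.495, and its stages overlapped, with 19 DPA replicate 2 as low as the 25 DPA libraries. The study's list places these 6 genes under hormone biosynthesis.

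The GASA family holds small gibberellin-regulated peptides. Of 9 genes tested 6 (66.7%) were lower and 1 (11.1%) higher, against 19.5 and 9.27% of all genes tested. The family median log2 fold change was -2.66. FtPinG0006350100.01 was its most abundant lower member, at 525, 219 and 367 in the 13 DPA libraries, 284, 250.1 and 208 in those of 19 DPA and 14.7, 10.8 and 91.98 in those of 25 DPA (log2FC -2.66 ± 0.76 SE, edgeR FDR 0.022). FtPinG0006417500.01 fell from 5.83, 5.03 and 5.67 to 0, 0.426 and 0.257 (log2FC -4.51 ± 0.55 SE, edgeR FDR 0.000886), and FtPinG0006919600.01 from 9.95, 10.96 and 8.66 to 0.846, 0.644 and 0.259 (log2FC -4.04 ± 0.50 SE, edgeR FDR 0.000894). The 19 DPA replicates of the last 2 genes lay close together. FtPinG0006188000.01 (log2FC -2.15) fell as well, while FtPinG0007503000.01 and FtPinG0006944700.01 overlapped between the stages and were high mainly in 19 DPA replicate 3. FtPinG0007855800.01 was the higher member, from 45.2, 69.5 and 42.8 to 119, 156 and 99.7 (log2FC 1.25 ± 0.41 SE, edgeR FDR 0.0377), called in 10 of 18 refits. Without 19 DPA replicate 3 the family had 4 lower and no higher DEGs. None of the 4 tested genes of the family that holds the GID1 receptors and none of the 3 GRAS genes on the list was a DEG. FtPinG0003934400.01 (FtGAIL), named after the DELLA repressor GAI of Arabidopsis, stood in the study's RT-qPCR panel and fell from 8.79, 14.6 and 12.2 to 1.46, 3.49 and 2.15 (log2FC -2.32 ± 0.35 SE, edgeR FDR 0.00162).

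Of the 14 cytokinin genes tested, 1 (7.14%) was higher and 2 (14.3%) lower. Neither share was above the 9.27 and 19.5% of all genes tested. FtPinG0001266800.01, of the LOG family that releases active cytokinin from its nucleotide, rose from 6.24, 9.42 and 6.62 to 28.7, 22.9 and 22.9 (log2FC 1.74 ± 0.49 SE, edgeR FDR 0.021), and FtPinG0003898800.01 of the same family fell from 0.7301, 2.66 and 0.793 to 0.26005, 0.289 and 0.139 (log2FC -2.55 ± 0.63 SE, edgeR FDR 0.0121). FtPinG0005658800.01, an FAD-linked oxidoreductase of the cytokinin-degrading type, fell from 1.49, 0.494 and 1.04 to 0.156, 0.0692 and 0.0417 (log2FC -3.46 ± 0.71 SE, edgeR FDR 0.00553).

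Flavonoid genes included lower DEGs for chalcone synthase, chalcone isomerase and flavonol synthase, and most of the higher DEGs were for sugar transfer. Of 47 listed genes 31 were tested, and 25.8% were higher and 38.7% lower at 25 DPA (median log2 fold change -1.0). Over all genes tested the shares were 9.27 and 19.5% and the median -0.02. The list, like that of the hormones, is the study's own. The entry into the pathway was carried by 3 tested genes for phenylalanine ammonia-lyase (PAL), none of which was a DEG. FtPinG0008236900.01 had 93.9, 127 and 98.8 at 19 DPA against 44.6, 65.7 and 99.1 at 25 DPA (log2FC -0.61 ± 0.41 SE, edgeR FDR 0.257), and its stages overlapped. With RLE factors 1 PAL gene was lower, and with library totals 2 were. Genes for the next enzymes stood in the RT-qPCR panel of the study, and the values here are from RNA-seq. FtC4H (FtPinG0001575100.01), cinnamate 4-hydroxylase, fell from 148, 222 and 97.6 to 10.2, 46.6 and 19.99 (log2FC -2.61 ± 0.61 SE, edgeR FDR 0.00985), and Ft4CL (FtPinG0005072700.01), the coenzyme A ligase that follows it, from 20.8, 46.5 and 13.7 to 1.75, 6.48 and 3.89 (log2FC -2.74 ± 0.57 SE, edgeR FDR 0.00592). No library of 25 DPA reached the range of 19 DPA in either gene.

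Chalcone synthase (CHS), the first enzyme of the flavonoid branch, was lower in 2 of 3 genes (66.7%), against 19.5% of all genes tested. FtPinG0008131000.01 went from 147, 186 and 66.9 at 13 DPA through 384, 361 and 163 at 19 DPA to 16.5, 55.5 and 26.2 at 25 DPA (log2FC -3.21 ± 0.59 SE, edgeR FDR 0.00341). FtPinG0008806400.01 fell from 68.04, 208 and 49.02 to 16.3, 33.7 and 28.5 (log2FC -2.05 ± 0.55 SE, edgeR FDR 0.0176), and here 19 DPA replicate 2 was by far the highest library. Without that library its log2FC was -1.16, and it was not called without 25 DPA replicate 1 or 25 DPA replicate 3. The gene for chalcone isomerase, FtPinG0002790600.01, which closes the ring of the chalcone, fell from 59.8, 77.8 and 36.6 to 7.94, 12.97 and 10.4 (log2FC -2.48 ± 0.34 SE, edgeR FDR 0.00126). All of its 25 DPA values were under those of 13 DPA, 48.2, 51.3 and 28.6, too.

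Hydroxylases of the B ring, which set the pattern that separates quercetin from kaempferol, changed in both directions. Over all genes tested 9.27% were higher and 19.5% lower. Both tested genes for flavonoid 3',5'-hydroxylase were lower, FtPinG0003628500.01 (log2FC -3.70) and FtPinG0006940000.01 (log2FC -1.58, edgeR FDR 0.0478). The call of the second gene was made in 12 of 18 refits. Without 19 DPA replicate 2 only 1 of the 2 genes was lower. Of 4 flavonoid 3'-monooxygenase genes, FtPinG0003629700.01 rose from 6.703, 9.09 and 5.499 to 20.5, 12.4 and 15.7 (log2FC 1.19 ± 0.25 SE, edgeR FDR 0.00606) and FtPinG0003629500.01 from 4.26, 1.48 and 3.26 to 8.63, 8.14 and 9.34 (log2FC 1.53 ± 0.40 SE, edgeR FDR 0.016). The most abundant of them, FtPinG0002353900.01, fell from 31.5, 59.1 and 27.4 to 14.8, 25.3 and 18.9 (log2FC -1.0 ± 0.31 SE, edgeR FDR 0.0308). Its change lay at the fold limit and was called in 14 of 18 refits. Without 19 DPA replicate 2 no flavonoid 3'-monooxygenase gene was lower. With library totals no gene of this group was higher and 2 were lower.

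Flavonol synthase (FLS), which makes the flavonols from which rutin is built, had 3 lower genes and 1 higher gene among 6. These shares were 50.0 and 16.7%, against 19.5 and 9.27% of all genes tested. FtPinG0006907100.01 was the most abundant flavonoid gene of 19 DPA and fell from 390.1, 590.0 and 368 to 80.1, 124 and 118 (log2FC -2.06 ± 0.36 SE, edgeR FDR 0.00283). FtPinG0006907000.01 went from 14.9, 37.7 and 15.1 to 1.9003, 5.78 and 2.95 (log2FC -2.66 ± 0.50 SE, edgeR FDR 0.0041), and FtPinG0001318800.01 from 6.68, 8.32 and 2.55 to 0.334, 0.9898 and 0.597 (log2FC -3.17 ± 0.73 SE, edgeR FDR 0.00914). In each of these 3 genes 19 DPA replicate 2 was the highest library of 19 DPA. FtPinG0001742000.01 rose from 2, 0 and 2 counts to 17, 12 and 33 (edgeR FDR 0.0061), a level of 1.82, 1.14 and 3.79 at 25 DPA, far below that of the gene that dominated the family.

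Genes for UDP-glucose flavonoid 3-O-glucosyltransferase, which attach the first sugar, were the flavonoid group with the most higher DEGs. Among 12 genes 5 (41.7%) were higher and 3 (25.0%) lower, against 9.27 and 19.5% of all genes tested. FtPinG0003187300.01 rose from 3.48, 5.56 and 4.004 to 20.2, 29.8 and 43.1 (log2FC 2.84 ± 0.40 SE, edgeR FDR 0.00138), and FtPinG0003585500.01 from 3.88, 3.66 and 4.39 to 20.9, 25.7 and 30.7 (log2FC 2.69 ± 0.32 SE, edgeR FDR 0.00081). FtPinG0001031700.01, already at 43.5, 59.8 and 42.4 at 19 DPA, reached 77.8, 108 and 126 (log2FC 1.10 ± 0.30 SE, edgeR FDR 0.0177). None of these genes overlapped between the stages, which their choice among DEGs favours. FtPinG0002956600.01 and FtPinG0001031900.01 were higher at lower levels. FtPinG0003584500.01 (log2FC -2.36), FtPinG0003186500.01 (log2FC -2.08) and FtPinG0003585700.01 (log2FC -1.20) were lower. The median of the group was 0.28, and -0.01 with library totals, when 4 genes were higher and 4 lower. FtUFGT of the panel, FtPinG0006606900.01, was at 103, 115 and 93.8 and then 66.1, 105 and 111 (log2FC -0.15 ± 0.37 SE, edgeR FDR 0.774), which overlapped.

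**Figure D5:**
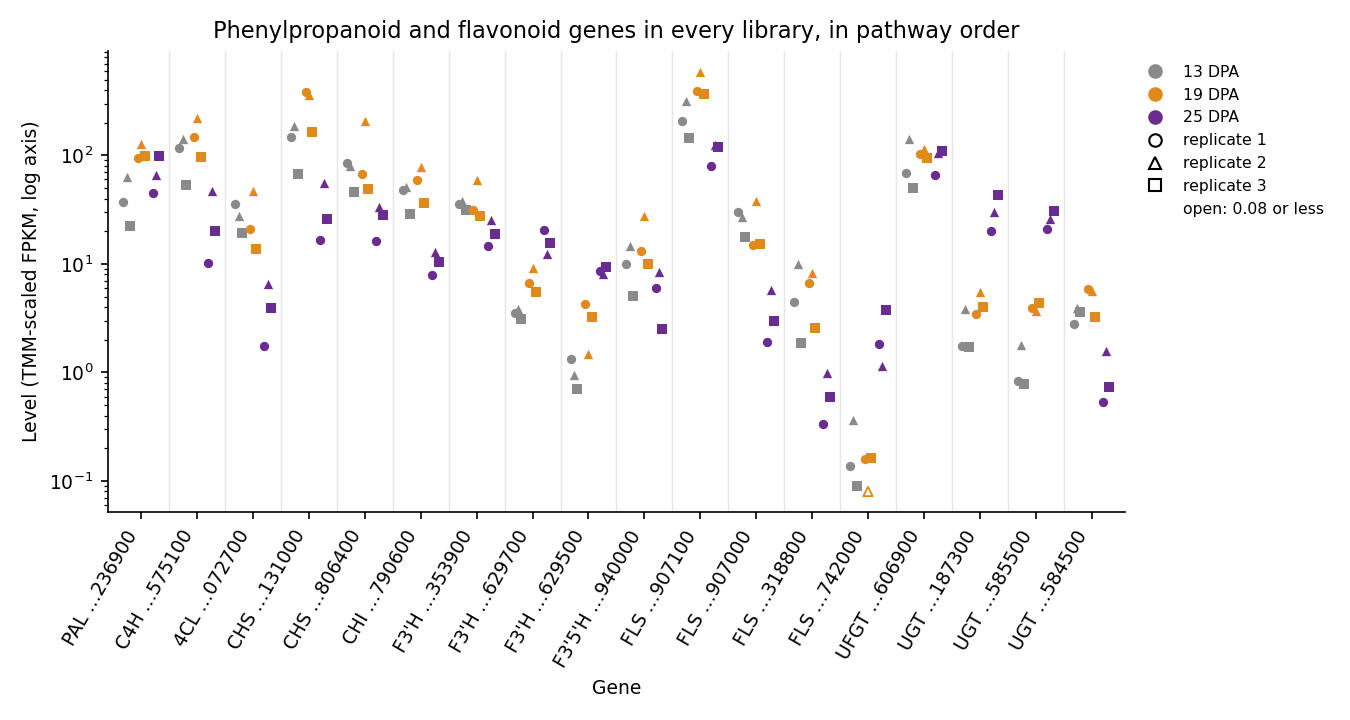
Levels (TMM-scaled FPKM, log axis) of 18 phenylpropanoid and flavonoid genes in pathway order (last 6 digits of the number shown) in each library, colours and symbols as in the plot of ABA genes. From C4H to CHI the 25 DPA libraries lie below those of 19 DPA, while of the sugar-attaching genes at the right (UGT) 2 were higher; an open symbol marks a level of 0.08 or less.

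The highest 25 DPA library differed between lower and higher flavonoid genes, as it did between all lower and all higher DEGs. That of 19 DPA was mostly replicate 2 in both groups of flavonoid genes. The directions were called on these same libraries. Of the 14 lower flavonoid and rutin-pathway genes, 19 DPA replicate 2 was the highest library of its stage in 10, and 25 DPA replicate 2 was the highest of its stage in 12. Over all lower DEGs these shares were 20.9 and 56.5%. Of the 8 higher flavonoid genes, 19 DPA replicate 2 was the highest of its stage in 5 and 25 DPA replicate 2 in 1, against 54.5 and 12.8% of all higher DEGs. Without 19 DPA replicate 2 the flavonoid list had 8 higher and 9 lower DEGs, without 25 DPA replicate 2 it had 8 and 12, and without 25 DPA replicate 1 it had 7 and 7.

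Starch synthase genes, which elongate the glucan chains of starch, had no higher and 3 lower DEGs among 17 tested (median log2 fold change -0.43). The lower share, 17.6%, was near the 19.5% of all genes tested. FtPinG0007470100.01, matched by the study to WAXY, the granule-bound enzyme of amylose synthesis, fell from 8.898, 6.47 and 8.72 to 2.53, 2.52 and 2.14 (log2FC -1.74 ± 0.19 SE, edgeR FDR 0.000655). This change had the smallest p of the list and was called in all 18 refits. A second WAXY match, FtPinG0000380300.01, went from 26.5, 17.9 and 18.3 to 9.21, 14.4 and 6.13 (log2FC -1.07 ± 0.38 SE, edgeR FDR 0.0491) and was called in 11. FtPinG0008723400.01, matched to SS4, which takes part in granule initiation in Arabidopsis, had 9.86, 10.3 and 10.1 at 19 DPA against 21.2, 19.3 and 16.8 at 25 DPA. Its stages did not overlap and its FDR passed, but its change (log2FC 0.92 ± 0.17 SE, edgeR FDR 0.00377) was under the limit. The most abundant gene with close replicates, FtPinG0005565800.01, had 108, 90.2 and 98.7 and 66.6, 78.5 and 74.6 (log2FC -0.43 ± 0.21 SE, edgeR FDR 0.124).

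Several starch synthase genes were carried by 1 library. FtPinG0000359400.01, called lower, had 51.2, 14.1 and 955 at 19 DPA against 1.88, 2.01 and 22.7 at 25 DPA (log2FC -5.27 ± 1.72 SE, edgeR FDR 0.0373). Its stages overlapped, and the call was made in 8 of 18 refits. FtPinG0009838000.01 went from 73.2, 14.4 and 674 at 13 DPA through 27.8, 1.67 and 1106 at 19 DPA to 1.597, 0.236 and 6.97 at 25 DPA (log2FC -7.02 ± 2.51 SE, edgeR FDR 0.0518) and was not a DEG. In 6 of the 17 genes 19 DPA replicate 3 was at least 3 times as high as either other library of its stage, and in 5 of the 17 the same held for 13 DPA replicate 3. At 25 DPA replicate 3 stood out in this way for 2 genes. The number of starch synthase DEGs was 1 without 19 DPA replicate 3, 13 DPA replicate 1 or 25 DPA replicate 1, and 5 without 19 DPA replicate 2.

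Seed storage protein genes named by the study had counts in all 6 libraries, though the globulin gene had only 1 count in 19 DPA replicate 1. These few genes alone are a weak check that the libraries hold seed RNA. The glutelin gene FtPinG0000417000.01 rose from 3.16, 3.72 and 2.77 to 25.5, 33.8 and 33.9 (log2FC 3.27 ± 0.56 SE, edgeR FDR 0.00261), after 5.72, 23.03 and 5.43 at 13 DPA, and was called in all 18 refits. A second glutelin gene, FtPinG0008579200.01, had 43.4, 54.5 and 36.9 and 75.5, 86.4 and 105 without overlap (log2FC 0.99 ± 0.40 SE, edgeR FDR 0.0792). The globulin gene FtPinG0004288700.01 had 0.0366, 1.14 and 0.186 and 1.07, 3.64 and 2.67 (log2FC 2.47 ± 1.0 SE, edgeR FDR 0.0756) and overlapped through 19 DPA replicate 2, the highest of its stage. Neither of the last 2 genes was a DEG. Without 19 DPA replicate 2 the globulin gene had a log2FC of 4.43 and was called higher, and it was called in 6 of the 18 refits.

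Of the 10 MADS-box and NAC transcription factor genes of the RT-qPCR panel, 7 were lower at 25 DPA and none was higher. Over all genes tested 19.5% were lower and 9.27% higher. The panel is the study's own choice, so its counts are not taken as independent evidence. The MADS-box genes are related to the SEPALLATA genes, which specify floral organs in Arabidopsis. Of these 7 genes 5 were lower and none was higher. FtAGL (FtPinG0002495300.01) fell from 166, 138 and 123 to 15.7, 27.5 and 26.7 (log2FC -2.61 ± 0.32 SE, edgeR FDR 0.000859), FtSEP1L (FtPinG0004510400.01) from 73.96, 93.9 and 54.5 to 11.6, 22.1 and 14.97 (log2FC -2.19 ± 0.32 SE, edgeR FDR 0.00147), and FtSEP1-2 (FtPinG0005096000.01) from 14.8, 10.8 and 6.93 to 1.46, 1.75 and 1.496 (log2FC -2.78 ± 0.32 SE, edgeR FDR 0.000672). Every 25 DPA library of these genes was below every 19 DPA library by a wide margin. FtSEP1L-2 (FtPinG0006608000.01, log2FC -1.60) and FtSEP1 (FtPinG0004500000.01, log2FC -1.10) were lower too. FtAGL9 (FtPinG0000494800.01) had 14.6, 18.2 and 18.7 and 7.91, 11.8 and 8.02 (log2FC -0.89 ± 0.21 SE, edgeR FDR 0.00965), just under the fold limit. FtSEP3L (FtPinG0005485500.01) had 1.06, 0.867 and 5.29 and 2.93, 1.42 and 3.14 (log2FC 0.04 ± 0.74 SE, edgeR FDR 0.971), with overlap.

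Genes of the NST group of NAC factors, which switch on secondary wall formation in Arabidopsis, were near 0 in 2 of the 3 libraries of 25 DPA. FtNST2 (FtPinG0007471500.01) fell from 24.1, 19.1 and 15.5 to 0, 3.11 and 0.216 (log2FC -4.09 ± 1.11 SE, edgeR FDR 0.0186), and FtNST1-2 (FtPinG0002596000.01) from 20.1, 9.36 and 11.9 to 0.0492, 2.71 and 0.0526 (log2FC -3.83 ± 1.05 SE, edgeR FDR 0.0189). FtNST1 (FtPinG0000381200.01) had 0.507, 0.965 and 0.397 and 0, 0.231 and 0 (edgeR FDR 0.076) and was not a DEG. In all 3 genes 25 DPA replicate 2 had the highest level of its stage. It was the highest 25 DPA library for each of the 10 lower genes of the panel, against 56.5% of all lower DEGs. The summed level of the 7 MADS-box genes was 283 to 394 at 19 DPA and 67.5 to 113 at 25 DPA, and that of the 3 NST genes 27.8 to 44.8 and 0.0492 to 6.05.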

How the data were processed

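RNA-seq of whole Tartary buckwheat seeds was analysed at 13, 19 and 25 DPA, with 3 libraries per stage, grouped by the stage that the labels give. The authors deposited a table of raw counts per gene, made from reads that were trimmed and aligned to the Pinku1 genome, and new genes came from an assembly guided by the annotation. The submitters' processing notes name Bowtie2 2.0.6 and TopHat2 2.0.12. Neither the counting tool nor its strand setting is given in the sources used here, so reads of overlapping genes and of close paralogs cannot be told apart. The authors also deposited FPKM values with no factor between libraries, which were used for gene lengths and for the limma alternatives. The files pair the identifiers with no gene names, so names and families follow the study's text and lists.

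Counts were tested in edgeR 4.0.16 (R 4.3.3) with TMM factors, filterByExpr (10331 of 33940 genes left out) and robust quasi-likelihood fits over all 9 libraries with a mean per stage, and p-values were adjusted by the Benjamini-Hochberg method over the 23609 genes tested. The sentence on the fold limit in the study's methods is incomplete, and 1 on the log2 scale was read from it. The standard error is the absolute log2 fold change divided by the square root of F. Levels are TMM-scaled FPKM. Genes at 0 throughout a stage were given without a fold, or at a bound of 3 counts per library, which covers counting error only. DESeq2 1.42.0 and limma 3.58.1 on log2(FPKM + 0.1) and log2(FPKM + 1) were alternatives, as were other scalings, filters, limits, a replicate block and the removal of each library. Python 3.11.15 with matplotlib 3.10.9, numpy 2.4.6 and pandas 2.3.3 gave the tables and plots, and the test was tried on simulated data.

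Named genes were those that the study's text or tables name, up to 3 DEGs with the smallest p per family and direction, the RT-qPCR panel, the storage protein genes, and, among genes without a name, the DEG of each direction with the smallest p and that with the largest difference in CPM. Other genes complete a statement. The members and lists were chosen with earlier results of these data known.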

Additional observations from a re-analysis of the deposited data

How the results depend on the processing

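The 6793 DEGs became 7397 with DESeq2, 6801 with RLE factors, 6740 with library totals, 6610 (1938 higher, 4672 lower) without a count filter, 6259 (2240 and 4019) with the 6 libraries alone and 4354 with limma on log2(FPKM + 1) without a filter. The higher DEGs, 2189 with TMM, were 1218 with library totals, 1266 with limma on log2(FPKM + 0.1), 1008 on log2(FPKM + 1) and 960 on that scale without a filter, or 18.1, 19.4, 21.9 and 22.0% of the DEGs in place of 32.2%. There were 3933 higher DEGs (42.2%) with no fold limit, and 3828 (44.8%) when a mean FPKM of 1 replaced it. The hormone list had 46 DEGs with limma on log2(FPKM + 1) without a filter in place of 71, and the starch list 5 with DESeq2 in place of 3. With 1 library left out at a time there were 5262 to 7077 DEGs, 1573 to 2426 higher and 3609 to 4651 lower, with 51 to 71 hormone, 14 to 21 flavonoid and 1 to 5 starch DEGs.

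Of the named DEGs, 16 of 25 higher and 37 of 59 lower genes were called in each of the 18 refits. Direction turned in 4 named genes, none of them a DEG. FtSEP3L (FtPinG0005485500.01) had log2 fold changes of -0.35 with library totals, -0.0175 without a count filter and -0.35 to 1.31 with 1 library left out. Novel02020 had -0.0102 with limma on log2(FPKM + 0.1) and -0.0028 on log2(FPKM + 1), with or without a filter, and with 1 library left out FtPinG0003888700.01 had -0.55 to 0.015 and FtUFGT (FtPinG0006606900.01) -0.28 to 0.0527. The cause of these changes was not tested.

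The labels do not say what a replicate number marks. Deviations from the stage means of same-numbered 19 and 25 DPA libraries had r of 0.0219, 0.0293 and 0.190 across genes, and those of other pairs -0.111 to 0.0806. Deviations within a stage cancel out, which ties these r to each other, so they cannot decide whether a number marks a plant. The numbers were not taken as a pairing because the labels do not define them. With a replicate block the test called 7184 DEGs, 2419 higher and 4765 lower, with 16 higher and 56 lower hormone genes, 8 and 13 flavonoid genes and 4 lower starch genes. With 3 libraries per stage, genes with a large spread can miss the threshold at any depth.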
